A study of Mus musculus with 2 samples.

Results

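The neuronal RNA-binding and splicing factor genes described here are Rbfox1, Rbfox3, Nova1, Nova2, Elavl2, Elavl3, Elavl4, Ptbp1, Ptbp2 and Srrm4. They were chosen by symbol from the GENCODE M21 annotation of the mouse genome (mm10), and all 10 matched 1 gene each of 21938 protein-coding genes. The assay was DNase-seq, which sequences the ends that DNase I leaves where it cuts open chromatin. The tissue was left cerebral cortex from B6CASTF1/J mice, hybrids of a laboratory strain and a castaneus strain, all male and aged 8 to 10 months. There were 2 libraries, labelled biological replicates 1 and 2, and the labels name no treatment, engineered allele or second group. Both carried 1 donor identifier and different biosample identifiers, so the spread between them may leave out variation between animals. No test was possible with 2 libraries of 1 group, and values are given for each library and as a mean ± SD (n = 2 libraries).

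RBFOX, NOVA and ELAVL proteins are sequence-specific RNA-binding proteins that neurons use to choose exons and to control the stability, location and translation of messenger RNAs. RBFOX proteins bind UGCAUG, NOVA proteins bind clusters of YCAY, and ELAVL (Hu) proteins bind U-rich elements. SRRM4 promotes the inclusion of neuronal microexons. PTBP1 represses many neuronal exons in non-neuronal cells, and during neuronal differentiation it gives way to its paralog PTBP2, which is in turn reduced as neurons mature.

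The authors deposited 2 lists of peaks, a stricter and a broader one, and a list of footprints, the short stretches inside accessible DNA that are protected from cutting. The stricter list held 40705 peaks in replicate 1 and 39508 in replicate 2, the broader list 71210 and 72217, and the footprint list 166128 and 174394. A promoter peak was any peak overlapping the stretch from 1 kb before to 1 kb after an annotated transcript start of the gene. The strength of a peak is the signal value that the authors deposited with it, which was a whole multiple of 0.00948 in replicate 1 and 0.00926 in replicate 2 (within 0.02 of a step). Of 6 markers of cortical excitatory neurons, 4 had a stricter promoter peak in both libraries, Neurod6, Tbr1 and Camk2a among them, and the defining genes Slc17a7 and Neurod2 had none. Of 4 markers of inhibitory neurons none had one in both. For astrocytes 1 of 4 (Gfap) and for oligodendrocytes 1 of 5 (Olig1) had one. A promoter peak of the broader list was present in both libraries at 3 of 4 inhibitory, 2 of 4 astrocyte and 3 of 5 oligodendrocyte markers. For the excitatory markers it was 4 of 6. Over all protein-coding genes 54.9% had a stricter promoter peak in both libraries, and 60.8% had one of the broader list. For microglia (4 genes), endothelium (3), the posterior body axis (3), liver (2), heart (2) and the erythroid lineage (2) no gene had a promoter peak of either list in both libraries. In this bulk tissue, accessibility in few cells and weak accessibility in many cells cannot be told apart.

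The accessible DNA on which the results turn is shown first. The sequences are from RefSeq's copy of the reference assembly (GRCm38.p6, the mm10 build), not from the hybrid animals, and are written 5′ to 3′ on the strand of the gene. Each is the stretch shared by the peaks of both libraries, without annotated exons of protein-coding genes and at most 300 bases long, and capitals mark the bases covered by a footprint in both libraries. Promoter peaks come first, from the strongest to the weakest of those shown, because their strength orders the 10 genes.
Nova1 promoter (chr12:46819441-46819660, minus strand): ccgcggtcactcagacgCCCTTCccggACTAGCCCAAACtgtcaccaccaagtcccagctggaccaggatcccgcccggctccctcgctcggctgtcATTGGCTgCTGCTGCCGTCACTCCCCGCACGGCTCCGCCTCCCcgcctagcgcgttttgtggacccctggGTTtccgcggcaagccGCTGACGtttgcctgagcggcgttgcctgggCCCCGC
Ptbp1 promoter (chr10:79854094-79854393, plus strand): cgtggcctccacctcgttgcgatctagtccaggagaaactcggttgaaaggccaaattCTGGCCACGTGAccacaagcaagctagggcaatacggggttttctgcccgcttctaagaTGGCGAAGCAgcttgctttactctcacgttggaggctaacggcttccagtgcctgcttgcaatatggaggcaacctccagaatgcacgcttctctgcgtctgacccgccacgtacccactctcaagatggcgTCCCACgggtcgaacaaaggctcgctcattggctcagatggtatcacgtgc
Elavl2 promoter (chr4:91376497-91376700, minus strand): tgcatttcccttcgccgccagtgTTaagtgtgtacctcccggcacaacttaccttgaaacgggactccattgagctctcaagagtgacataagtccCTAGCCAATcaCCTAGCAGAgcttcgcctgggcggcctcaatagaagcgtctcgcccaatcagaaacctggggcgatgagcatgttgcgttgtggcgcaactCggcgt
Nova2 promoter (chr7:18925261-18925487, plus strand): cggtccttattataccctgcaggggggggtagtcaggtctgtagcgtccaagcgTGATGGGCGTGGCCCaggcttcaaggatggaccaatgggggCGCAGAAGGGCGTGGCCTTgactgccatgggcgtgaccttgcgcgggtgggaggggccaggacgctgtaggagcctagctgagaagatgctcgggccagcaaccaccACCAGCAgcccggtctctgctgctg
Srrm4 promoter (chr5:116591818-116591960, minus strand): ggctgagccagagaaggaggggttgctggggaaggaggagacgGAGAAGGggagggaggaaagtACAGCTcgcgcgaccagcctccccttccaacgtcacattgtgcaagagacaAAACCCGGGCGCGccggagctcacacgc
Elavl3 promoter (chr9:22052024-22052167, minus strand): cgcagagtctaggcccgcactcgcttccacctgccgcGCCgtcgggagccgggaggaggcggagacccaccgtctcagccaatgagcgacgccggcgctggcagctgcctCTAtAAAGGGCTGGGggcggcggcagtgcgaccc

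For the RBFOX genes, the strongest shared peak of each window lay in an intron, and the peak of Rbfox3 that counted as a promoter peak lay near a start far inside the gene. These 3 sequences are shown because they carry the accessible DNA of these 2 long genes.
Rbfox1 intron (chr16:6018761-6018960, plus strand): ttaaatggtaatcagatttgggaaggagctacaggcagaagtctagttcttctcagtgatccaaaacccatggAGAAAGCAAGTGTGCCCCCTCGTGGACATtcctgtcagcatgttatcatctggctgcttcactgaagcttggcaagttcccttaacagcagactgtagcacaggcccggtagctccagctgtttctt
Rbfox3 intron (chr11:118739007-118739140, minus strand): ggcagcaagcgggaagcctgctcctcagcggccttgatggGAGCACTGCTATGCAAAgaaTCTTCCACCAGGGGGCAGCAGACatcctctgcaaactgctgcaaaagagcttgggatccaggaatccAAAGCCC
Rbfox3 inner start (chr11:118508002-118508139, minus strand): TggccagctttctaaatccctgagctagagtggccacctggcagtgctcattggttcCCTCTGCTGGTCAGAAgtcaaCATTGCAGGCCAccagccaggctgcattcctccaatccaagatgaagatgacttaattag

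All 10 genes had a stricter promoter peak in both libraries, where 54.9% of all protein-coding genes did. All 10 also had a promoter peak of the broader list in both, where 60.8% of all genes did. These counts accept a peak near any annotated start. The 10 genes have more groups of nearby starts per gene than all genes do, and so more chances of a peak. At the first group of nearby starts alone, 7 of the 10 had a stricter peak in both libraries, beside 50.6% of all protein-coding genes. Rbfox3, Elavl2 and Ptbp2 had theirs at later starts only. The strongest promoter peak of the 10 genes ranged from 1.40 to 5.24 in replicate 1 and from 1.48 to 5.07 in replicate 2. The median of the 10 genes was 2.35 and 2.46, beside 2.66 over the 12485 genes with a promoter peak in replicate 1 and 2.32 over the 12517 in replicate 2. The genes were thus alike in having a promoter peak near some annotated start and unlike in its strength, which lay on both sides of the genome-wide median.

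**Figure D1:**
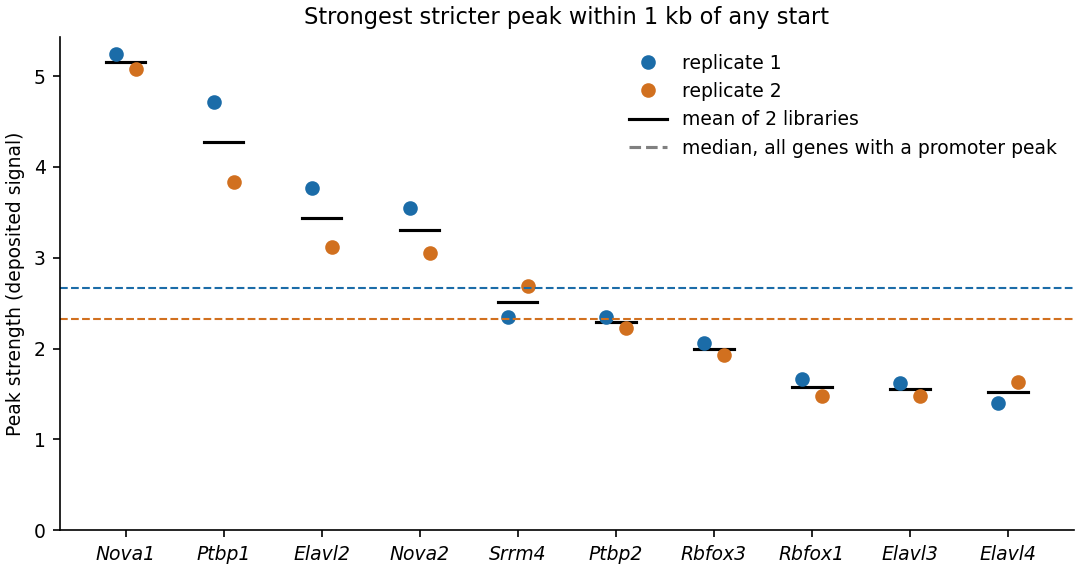
Strength (deposited signal, vertical axis) of the strongest stricter peak within 1 kb of any start, for each of the 10 genes in order of their mean, with 1 point per library and a bar at the mean of the 2 libraries. The dashed lines are the medians over all genes with a promoter peak, 2.66 in replicate 1 and 2.32 in replicate 2, and Nova1, Ptbp1, Elavl2 and Nova2 lay above both lines in both libraries.

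Nova1 (chr12:46694517-46818929, minus strand) and Nova2 (chr7:18925888-18965319, plus strand) encode the NOVA regulators of alternative splicing, first known as targets of an autoimmune neurological disorder. The Nova1 promoter peak had a strength of 5.24 in replicate 1 and 5.07 in replicate 2 (5.16 ± 0.118), at percentiles 91.2 and 95.5 of genes with a promoter peak. That of Nova2 had 3.54 and 3.06 (3.30 ± 0.346), at percentiles 68.8 and 69.8. The Nova1 values were the highest of the 10 genes in both libraries, and the 2 genes did not overlap. Both strongest peaks lay upstream of the start, centred 611 bp and 621 bp from that of Nova1 in the 2 libraries and 514 bp and 508 bp from that of Nova2. Nova1 had 2 weaker peaks nearer its start, at 1.49 and 1.35 on the upstream side and at 0.976 and 1.31 in its first intron. Within 500 bp of a start the strongest Nova1 peak was reached in replicate 1 alone, and the mean strength there was 3.30.

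The 1001 bases around the Nova1 start had a GC content of 71.3% and a ratio of observed to expected CpG of 1.06, at percentile 99.1 of 12042 promoters. The Nova2 start had 73.3% GC, the highest of the 10, and a CpG ratio of 0.661, below the median of 0.749 over these promoters. In the Nova1 sequence shown, a CCAAT box (searched as CCAAT on both strands, the site of NF-Y) lay wholly within bases that were footprinted in both libraries. The Nova2 sequence held CCAAT once, outside such bases. Nova1 had 6 footprints from 10 kb before the gene to 10 kb after it in replicate 1 and 9 in replicate 2. In each library 6 of them overlapped a footprint of the other, and all lay within 1 kb of a Nova1 start.

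Elavl2 (chr4:91250763-91400785, minus strand), Elavl3 (chr9:22015005-22052023, minus strand) and Elavl4 (chr4:110203722-110351909, minus strand) encode the neuronal Hu proteins HuB, HuC and HuD. The strongest promoter peak of Elavl2 had a strength of 3.76 and 3.12 (3.44 ± 0.454). Elavl3 had 1.62 and 1.48 (1.55 ± 0.0985), and Elavl4 had 1.40 and 1.63 (1.52 ± 0.160). Elavl2 was above the other members of its family in both libraries, and the values of Elavl3 and Elavl4 overlapped. Among genes with a promoter peak Elavl3 was at percentiles 24.8 and 24.4, and Elavl4 at 19.3 and 29.0.

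Which of the alternative starts were accessible differed between these 3 genes. Starts at most 500 bp apart were joined into start groups. Of the 8 start groups of Elavl2, 3 had a stricter peak in both libraries. The strongest was 24.3 kb downstream of the first start, at the group of Elavl2-203, Elavl2-205, Elavl2-208, Elavl2-209 and Elavl2-215. The groups of Elavl2-212 and Elavl2-201, at 27.8 and 28.7 kb, shared a peak of 1.62 and 1.48. The first 2 start groups had only a peak of the broader list, at 0.389 in each library. The starts of Elavl2 with a stricter peak thus lay inside the annotated gene and not at its beginning.

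Elavl4 showed the other arrangement. Its first start group, with Elavl4-207 alone, was the only 1 of 8 with a stricter peak in both libraries, at 1.40 and 1.63. The strongest call there was not the same peak in each library. The peak downstream of the start had 1.40 and 1.58 and the peak over it 1.31 and 1.63. The groups of Elavl4-202 and Elavl4-201, 64.4 and 65.0 kb downstream and holding 2 basic transcripts each, had a stricter peak in replicate 2 alone, at 0.870, while the broader list had peaks there in both, the strongest at 0.995 and 0.870. Elavl4 had 13 footprints in its window in replicate 1 and 32 in replicate 2, the widest gap of the 10 genes, and 14 of those in replicate 2 lay at the group of Elavl4-201 against 4 in replicate 1. Elavl3 had 2 start groups, and the peak was at the first.

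The sequences of the Elavl2 and Elavl3 promoters differed in composition and in matches to short motifs. The Elavl2 start had a GC content of 45.7%, at percentile 1.61 of promoters, with a CpG ratio of 0.774. Elavl3 had 64.1% and 0.787. The Elavl2 sequence held CCAAT at 2 places, 1 of them wholly within footprinted bases, and Elavl2 was the only gene of the 10 with such a match within 250 bases upstream of the start nearest its strongest peak, where 3.26% of 12042 promoters had one. Elavl3 was the only one with a TATA box (TATAAA) in that stretch, where 5.10% of promoters had one, and 5 of its 6 bases were footprinted in both libraries.

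Rbfox1 (chr16:5885355-7411526, plus strand) and Rbfox3 (chr11:118489762-118911597, minus strand) encode RBFOX splicing regulators, and RBFOX3 is the antigen NeuN that marks the nuclei of most mature neurons. Rbfox1 spans 1526 kb and Rbfox3 422 kb, the longest genes of the 10. Their strongest promoter peaks had a strength of 1.67 and 1.48 (1.57 ± 0.132) for Rbfox1 and of 2.07 and 1.93 (2.00 ± 0.0992) for Rbfox3. Rbfox3 was above Rbfox1 in both libraries, and both lay below the median of all genes with a promoter peak.

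Of the 7 start groups of Rbfox1, 3 had a stricter peak in both libraries. The first group (Rbfox1-204 and Rbfox1-205) had 1.19 and 1.01, the group of Rbfox1-201, 464 kb downstream, had the strongest peak, and that of Rbfox1-208, at 1308 kb, had 1.07 and 1.21. The starts of Rbfox1-202, Rbfox1-203, Rbfox1-206 and Rbfox1-207 had no stricter peak in either library. Within 1 kb of the first 3 of these no base was at an FDR under 0.05 in either library. At Rbfox1-207 there were 82 such bases and a peak of the broader list, at 0.546, in replicate 2 alone. The starts of Rbfox1 with a stricter peak in both libraries were therefore spread over most of the gene, with starts without one between and after them.

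The promoter peak of Rbfox3 lay away from its largest start group, which holds 4 of its 10 transcripts. That group, with Rbfox3-201, Rbfox3-204, Rbfox3-205 and Rbfox3-206, all in the basic set of GENCODE, had no stricter peak in either library. The broader list had 1 peak there in replicate 1 and 4 in replicate 2, the strongest at 1.12 and 1.06. Within 1 kb of these starts 132 bases in replicate 1 and 648 in replicate 2 were at an FDR under 0.05, and 0 and 6 at 0.001 or less. The stricter peak that counted as a promoter peak in both libraries was centred 717 bp and 707 bp upstream of the start of Rbfox3-210, a transcript outside the basic set, 404 kb downstream of the first start. Rbfox3 was therefore the only gene of the 10 without a stricter promoter peak in both libraries when basic transcripts alone were used, or when the window was 500 bp. The sequence around that inner start had a CpG ratio of 0.268, at percentile 2.49 of promoters.

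Srrm4 (chr5:116439275-116591817, minus strand) encodes nSR100, the activator of neuronal microexons. Its promoter peak had a strength of 2.35 and 2.68 (2.52 ± 0.237) and covered the start of Srrm4-201, the first of 5 start groups. The other 4 had no stricter peak in either library, and 2 of them, 138 and 145 kb downstream, had a peak of the broader list in both, at 0.701 and 0.778 for Srrm4-203 and at 0.825 and 0.750 for Srrm4-202. A second upstream peak, at 1.08, was listed in replicate 1 alone. Srrm4 and Ptbp2 had exactly the same strength in replicate 1, 2.35.

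Ptbp1 (chr10:79854427-79864771, plus strand) and Ptbp2 (chr3:119718742-119784466, minus strand) encode the polypyrimidine tract-binding proteins, of which PTBP1 is the form of non-neuronal cells and progenitors. The strongest Ptbp1 promoter peak had a strength of 4.72 and 3.83 (4.28 ± 0.627), at percentiles 86.5 and 84.4 of genes with one. That of Ptbp2 had 2.35 and 2.23 (2.29 ± 0.0843), at percentiles 42.6 and 47.2. Ptbp1 was above Ptbp2 in both libraries, and second of the 10 genes after Nova1. Strength describes accessible DNA and not RNA, and neither the cell types behind either peak nor the RNA levels were measured here. Of the 3 stricter Ptbp1 peaks in each library, 2, the strongest among them, lay also within 1 kb of the start of E130317F20Rik, a long non-coding RNA on the other strand that the annotation types as sharing a bidirectional promoter, so these 2 cannot be told apart by gene. These 2 calls overlapped each other in each library, and joined they left 2 peaks in the window.

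In the Ptbp1 sequence shown, a CACGTG E-box, the site of MYC, CLOCK and related factors, lay wholly within footprinted bases at position 64 of the sequence, and a second one, at position 294, had none of its bases footprinted in both. The same sequence held AAGATGGCG, the YY1 motif, at positions 114 and 241, and 5 of the 9 bases of the first were footprinted in both libraries. In the nearest 250 bases upstream of the start, which hold the second E-box and both YY1 matches, 1.40% of 12042 promoters held the YY1 motif and 9.07% held CACGTG. Ptbp1 was the only gene of the 10 with either in those 250 bases. Within 500 bases CACGTG was found at Rbfox1 as well, beside 13.5% of promoters. The CpG ratio of Ptbp1 was 0.956 and that of Ptbp2 0.915, the highest of the 10 after Nova1. Ptbp2 was accessible at the group of Ptbp2-201, which held 4 basic transcripts. Its first group, Ptbp2-209 and Ptbp2-212, 0.662 kb upstream of it, had a stricter peak within 1 kb in replicate 2 alone, at 0.593. That peak was centred 68 bp downstream of the start of Ptbp2-203, which belongs to the group of Ptbp2-201, and it counted there too. The broader list had a peak within 1 kb of the first group in both libraries, at 0.351 and 0.593.

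By mean strength of the strongest promoter peak the order was Nova1, Ptbp1, Elavl2, Nova2, Srrm4, Ptbp2, Rbfox3, Rbfox1, Elavl3 and Elavl4. The ranges of the 2 libraries did not overlap between Nova1 and Ptbp1, Ptbp1 and Elavl2, Nova2 and Srrm4, Ptbp2 and Rbfox3, or Rbfox3 and Rbfox1. They overlapped or touched between Elavl2 and Nova2, between Srrm4 and Ptbp2, and among Rbfox1, Elavl3 and Elavl4, whose order is thus not resolved. The order also depended on the measure. With all promoter peaks of a gene summed, Ptbp1 (10.0 ± 1.61) was above Nova1 (7.72 ± 0.0246), and Rbfox1 (5.81 ± 0.420) was above Nova2 (3.30 ± 0.346). Within 500 bp of a start, the mean of Nova1 (3.30 ± 2.75) was below those of Ptbp1 (4.28) and Elavl2 (3.44).

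Over all 10 genes there were 52 start groups. A stricter peak was present in both libraries at 15 of them, where 28.1% of all start groups of protein-coding genes had one, and 4 more had one in a single library. Pooled over first and later groups, the share was thus near that of all genes. Later groups made up 42 of the 52, beside 30608 of 52546 for all genes, so the pooled shares are not like for like. With 52546 groups in 21938 protein-coding genes, the 10 genes had more start groups per gene. The count of genes with a peak near any start is therefore not like for like either. Of the 10 first start groups 7 had one, beside 50.6% of all first groups. Of the 42 later groups 8 had one, beside 3669 of 30608 later groups of all genes. The first groups without a stricter peak in both were those of Rbfox3, Elavl2 and Ptbp2. Later groups with one were found in Rbfox1 (2), Rbfox3 (1), Nova1 (1), Elavl2 (3) and Ptbp2 (1). That of Nova1 lay 0.939 kb from the first group and shared its peaks.

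**Figure D2:**
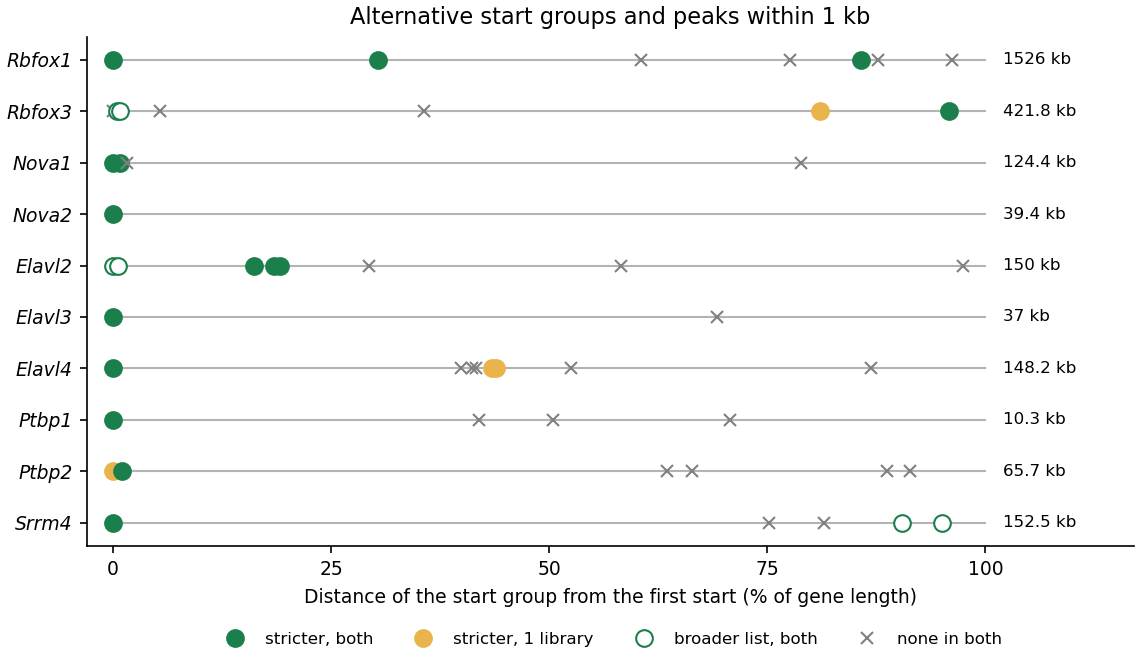
Start groups of each gene placed by distance from the first start as a percent of gene length (horizontal axis, gene length at the right), filled green where a stricter peak lay within 1 kb in both libraries, yellow where it did in 1 library, open where both had only a peak of the broader list, and crossed where neither held in both. In total 15 of the 52 groups are filled green, and the single green group of Rbfox3 lies near the far end of the gene.

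The 2 longest genes had the most stricter peaks, promoter peaks included. In windows that ran from 10 kb before the gene to 10 kb after it, stricter peaks numbered 19 in replicate 1 and 13 in replicate 2 for Rbfox1, and 8 and 7 for Rbfox3. Each of the other genes had between 2 and 6 in either library. In all, the windows held 53 and 49 stricter peaks, 107 and 123 peaks of the broader list, and 237 and 266 footprints. The median window was 156 kb long, beside 37.4 kb for all protein-coding genes.

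Set per length, the median density of stricter peaks was 0.237 ± 0.0226 per 10 kb, beside 0.300 ± 0.00595 for all protein-coding genes. For the broader list it was 0.584 ± 0.0311 beside 0.462 ± 0.00525, and for footprints 1.27 ± 0.285 beside 1.29 ± 0.0464. The genes stood below the median of all genes by stricter peaks and above it by the broader list, so the direction depended on the list. Ptbp1, the shortest gene, had the highest density of stricter peaks, 0.989 per 10 kb with 3 peaks in each library, and Rbfox1 the lowest, 0.103 ± 0.0274. Elavl3 had 0.702 ± 0.248 and Nova2 0.589 ± 0.119. Nova2 had 5 peaks of the broader list in replicate 1 and 11 in replicate 2, the largest relative gap between the libraries in that list. Of these 11, 4 were overlapping calls of 1 region, and all 4 overlapped a single call of replicate 1, so the gap is partly one of repeated calls.

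**Figure D3:**
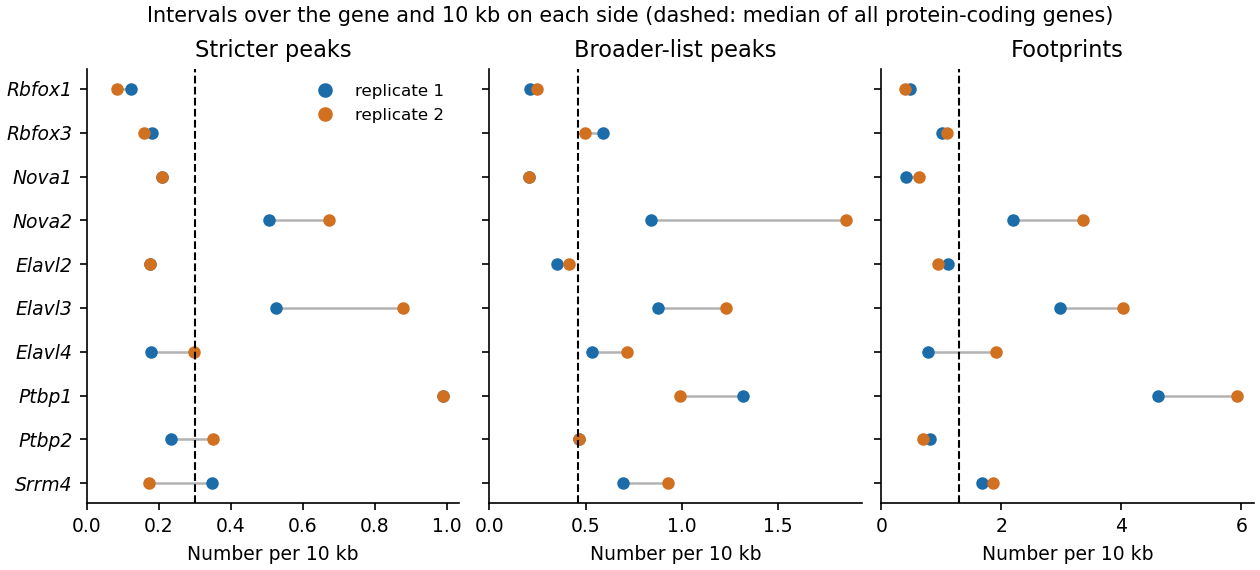
Number per 10 kb (horizontal axes) of stricter peaks, broader-list peaks and footprints in the window of each gene (10 kb before it to 10 kb after it), with 1 point per library and a dashed line at the median of all protein-coding genes (0.300, 0.462 and 1.29). Ptbp1, Elavl3 and Nova2 lie to the right of the line in all 3 panels and both libraries, and Rbfox1, Nova1 and Elavl2 to its left.

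Of the stricter peaks in the windows, 40 of 53 in replicate 1 (75.5%) overlapped one of replicate 2, and 40 of 49 in replicate 2 (81.6%) overlapped one of replicate 1. Over all stricter peaks these shares were 76.5% and 78.4%. Set against the broader list of the other library, 96.2% and 91.8% of the window peaks overlapped. In the shared window peaks the 2 strengths were at most 1.71-fold apart. The lowest sharing was that of Srrm4 in replicate 1, with 2 of 6 peaks, and of Elavl3 and Elavl4 in replicate 2, with 3 of 5 each. Rbfox1 shared 12 of 19 and 12 of 13. Of the footprints, 44.7% and 38.3% overlapped one of the other library, beside 46.0% and 43.6% over the libraries. Inside stricter peaks lay 133 of 237 and 133 of 266 of them, beside 66.7% and 63.5% over the libraries.

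Shared stricter peaks more than 1 kb from any annotated start numbered 17, of which Rbfox1 had 7, Rbfox3 5, Nova2 2, Elavl3 2 and Srrm4 1. Nova1, Elavl2, Elavl4, Ptbp1 and Ptbp2 had none. The strongest of Rbfox1, in the intron 133 kb downstream of the start of Rbfox1-204, had a strength of 2.57 and 1.62, above the strongest promoter peak of that gene in both libraries. The strongest of Rbfox3 had 2.37 and 2.20, likewise above its promoter peak. Of the 7 Rbfox1 peaks 6 were weaker in replicate 2, and of the 5 Rbfox3 peaks 2 were. The median strongest promoter peak of all genes with one was also lower in replicate 2, at 2.32 against 2.66. Those of Nova2 lay 2.85 and 4.56 kb upstream of the start in replicate 1, the stronger at 1.91 and 1.58. In Elavl3 a peak 2.53 kb upstream had 1.73 and 1.94, above the promoter peak of Elavl3 in both libraries. The single such peak of Srrm4, 1.45 kb upstream, had 0.815 and 0.768.

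**Figure D4:**
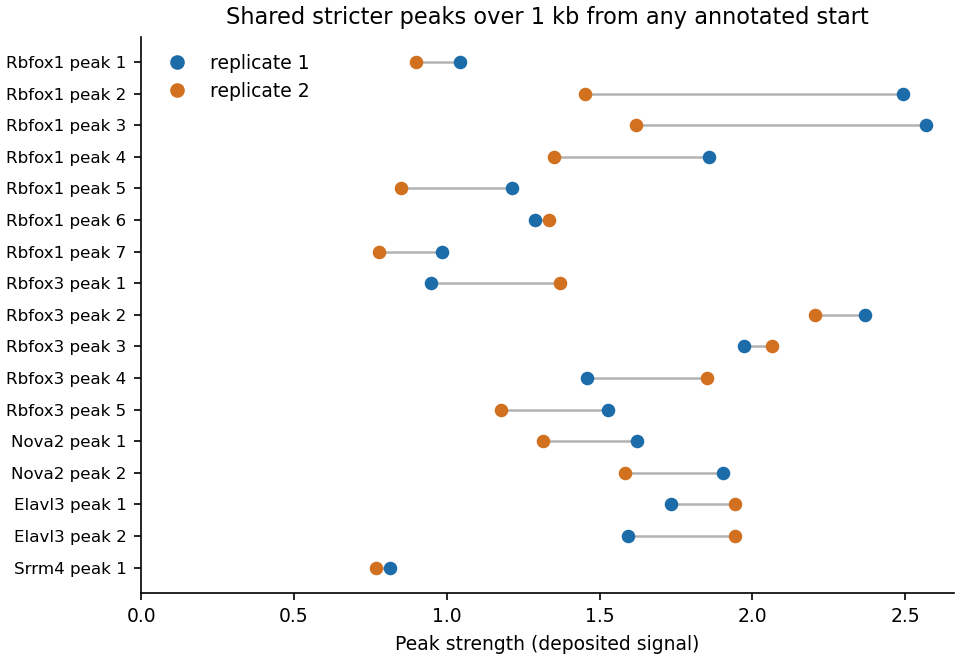
Strength (deposited signal, horizontal axis) in replicates 1 and 2 of the 17 shared stricter peaks that lie more than 1 kb from any annotated start, numbered within each gene along the chromosome. The Rbfox1 peaks reach 2.57 in replicate 1 and 1.62 in replicate 2, and the replicate 2 point lies to the left in 6 of its 7 peaks; the 2 Elavl3 peaks overlap the same call of replicate 2.

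The CTCF core (CCANNAGGG, both strands), a motif of the insulator protein CTCF, lay wholly within footprinted bases in the Rbfox1 and Rbfox3 intron sequences shown. These were 2 of the 17 peaks, and 7.74% of 13385 shared peaks away from starts had such a match in the 200 bases around their centre. Counted anywhere in those bases, the core was present in 3 of 17 (the third near Srrm4) and in 13.0% of all. Another Rbfox3 intron peak, named after its values were seen, at chr11:118793641-118793817 with a strength of 1.46 and 1.85, held the EGR motif (GCGTGGGCG) and a GC box (GGGCGG) within footprinted bases, where 0.149% and 2.50% of all such peaks did. The neurogenic E-box (CAGATG) was present in 4 of 17 peaks, beside 20.9%. The AP-1 site (TGANTCA) was in 1 of 17, beside 8.17% of all, the E-box CACGTG in 2, beside 4.34%, and the RFX motif (GTTGCCATG) in 1, beside 1.02%. These matches describe the letters of the reference and not binding.

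In the 250 bases upstream of the start nearest the strongest promoter peak, GC boxes were found in 6 of 10 genes, beside 61.5% of promoters, and CCAAT in 3 (Elavl2, Elavl3 and Ptbp1), beside 37.2%. CAGATG was found in 2 (Ptbp1 and Srrm4), beside 9.49%. In this stretch none of the 10 had a GC box wholly within bases footprinted in both libraries, beside 22.1% of promoters. Neither the left nor the right part of the RE1 element of the repressor REST (TTCAGCACC and GGACAGCGC) was found there, beside 0.282% and 0.590% of promoters. AP-1, CRE (TGACGTCA), ETS (CCGGAAGT), NRF1 (GCATGCGC), EGR, MEF2 (CTAAAAATA), the CTCF core and the RFX motif had no match in any of the 10, and between 0.249% and 6.43% of promoters held each. For Nova1, Nova2 and Rbfox3 the strongest promoter peak lay wholly outside these 250 bases, so these counts do not describe that peak. Within the strongest shared promoter peaks themselves, CCAAT was present at Rbfox1, Rbfox3, Nova1 and Nova2 as well. The share over all promoters was not computed for this.

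Other RNA-binding protein genes were described in the same way. All 4 paralogs of the 10 genes had a stricter promoter peak in both libraries, with a strength of 4.52 ± 0.618 for Elavl1 (HuR, the widely expressed Hu protein), 3.17 ± 0.457 for Srrm3, 2.11 ± 0.0614 for Rbfox2 and 1.65 ± 0.0257 for Ptbp3. Elavl1 was above Elavl2, Elavl3 and Elavl4, and Rbfox2 was above Rbfox1, in both libraries. The ranges of Rbfox2 (2.15 and 2.06) and Rbfox3 (2.07 and 1.93) overlapped.

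Of 15 CELF, MBNL, QKI, STAR and Musashi genes, which regulate splicing and translation in brain and muscle, 13 had a stricter promoter peak in both libraries. Mbnl3 had none in either and Khdrbs3 had one in replicate 2 alone, but each had one of the broader list in both libraries. Mbnl2 (3.54 ± 0.781) and Khdrbs1 (3.25 ± 0.352) were the strongest. Of 17 genes for proteins of neuronal translation and RNA transport 13 had a stricter promoter peak in both libraries. Igf2bp1, Igf2bp2 and Igf2bp3 had no stricter one in either library and Cpeb4 had one in replicate 1 alone, and Fxr2 (7.41 ± 1.29) was the strongest. In the broader list Igf2bp1 and Cpeb4 had one in both libraries, Igf2bp2 in replicate 2 alone and Igf2bp3 in neither.

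Stricter promoter peaks were present in both libraries at all 13 genes of SR splicing factors, general activators of exon inclusion, and at all 16 hnRNP genes. The strongest were Srsf7 (5.17 ± 0.140) and Srsf3 (5.02 ± 0.269), and Hnrnpc (10.1 ± 0.365) and Hnrnpa2b1 (7.29 ± 0.339). The median strength of the hnRNP genes was 5.68 in replicate 1 and 4.15 in replicate 2 and that of the SR genes 4.00 and 3.15, above the medians of the 10 neuronal genes in both libraries. Of 8 splicing regulators and RNA-binding proteins of epithelium, muscle and germ line only 2 had a stricter promoter peak in both libraries. These were Rbm38 (2.58 ± 0.0956) and Dazl (1.13 ± 0.151), and Esrp1, Esrp2, Rbm20, Rbm24, A1cf and Ddx4 had no stricter one in either. By the broader list 4 of the 8 had one in both, Rbm20 and Rbm24 among them, and Esrp1 had one in replicate 2 alone. In sum 61 of these 73 genes had a stricter promoter peak in both libraries, beside 54.9% of all protein-coding genes. For the broader list it was 67, beside 60.8%.

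**Figure D5:**
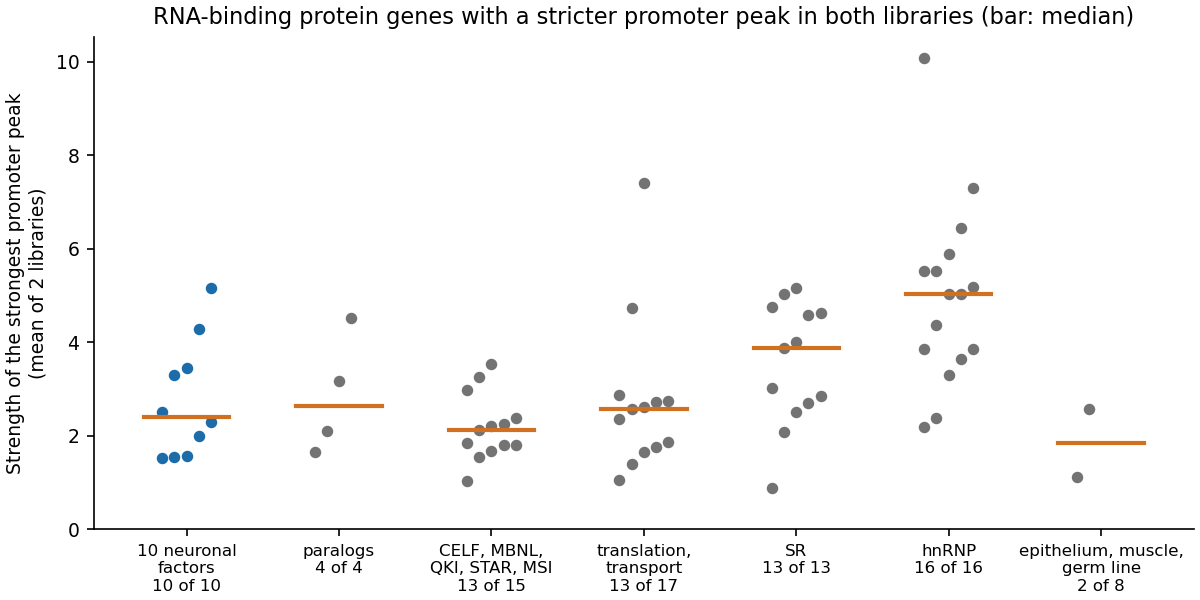
Strength of the strongest stricter promoter peak (mean of 2 libraries, vertical axis) of RNA-binding protein genes with such a peak in both libraries, by group, with a bar at the median and the number of genes below each name. The 10 neuronal genes span 1.52 to 5.16, the hnRNP genes reach 10.1, and 2 of 8 genes of epithelium, muscle and germ line are present.

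The gene most like each of the 10 was found over 8 values, the strongest promoter strength and the numbers of stricter peaks, broader-list peaks and footprints of the window in 2 libraries, as the Euclidean distance on the log2(value + 1) scale. The closest pairs were Elavl2 with Parp11 (distance 0.232), Ptbp1 with Cox6a1 (0.232), Nova1 with Utp15 (0.240) and Rbfox1 with Ntm (0.280). Elavl3 was nearest to Pole2 (0.377), Ptbp2 to Fam174a (0.430), Nova2 to Cep112 (0.495), Rbfox3 to Nfib (0.548), Srrm4 to Sh3gl2 (0.558) and Elavl4 to Plch2 (0.605). Length was not among the 8 values. Ntm, like Rbfox1, is a long gene, of 968 kb, while Cep112, of 435 kb, is unlike Nova2, of 39.4 kb. The 20 and 13 stricter peaks of Ntm are among the values by which it was chosen.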

How the data were processed

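Accessibility was measured by DNase-seq in 2 libraries of left cerebral cortex, placed in 1 group by the labels. Per the notes deposited with the files, the authors made for each library 2 peak lists, a table of FDR values and a list of footprints on the mm10 assembly. The aligner, peak caller and scale of the peak signal were not given in the sources used here. The peak signal (strength) was used as the authors deposited it, without rescaling. The deposited FDR table holds q-values (false discovery rates) under 0.05 for short intervals and was used to count bases near starts, also at 0.001 or less. The deposited footprint intervals carry a constant value (another unit), which was not used. Read totals were not analysed here.

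Genes, transcripts and the basic set came from GENCODE M21, and sequence from the GRCm38.p6 assembly; chromosome names matched and 0 intervals passed a chromosome end. A peak was counted in a window by its midpoint and at a start by at least 1 bp of overlap within 1000 bp. Windows of neighbouring genes and overlapping peak calls can share peaks. Promoters for motifs and composition were those of the 12042 genes with a stricter promoter peak in both libraries. Python 3.11.15 with numpy 2.4.6, pandas 2.3.3, pysam 0.24.0 and matplotlib 3.10.9, and samtools 1.23.1 were used, and the peak and start counting was tested on simulated peaks. The genes and lists were chosen with earlier results of these data known. All 10 genes, their paralogs, and in each other list the 2 genes with the strongest promoter peak and those without one in both libraries are named, with the nearest gene of each and the strongest shared promoter and non-promoter peaks. A gene of 1 of these lists and a marker gene that the rule would name are not reported here. Any peak over 3-fold apart between the libraries was to be named, and none was. The motif search of 9 bases in the closing section was added after the sequence was seen. Alternatives were other windows, lists, transcript sets, joining, overlap and leaving out 1 library. The hybrid alleles were not separated, so strength is over both. Means and SDs are over 2 libraries, and the depth behind each value is unknown.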

Additional observations from a re-analysis of the deposited data

How the results depend on the processing

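The number of the 10 genes with a stricter promoter peak in both libraries was 9 with a window of 500 bp or basic transcripts alone and 7 with the first start alone. It was 10 with a window of 2500 bp, with the strongest 50% of peaks, and with either library left out. The start groups with a peak in both numbered 25 of 52 with the broader list, 38 of 83 with every distinct start counted, and 15 to 19 with 1 library left out. The median strength of 2.40 was 4.04 with all promoter peaks summed, 2.14 with a window of 500 bp, and 2.35 to 2.46 with 1 library left out. The median density of 0.237 peaks per 10 kb was 0.120 over the gene body alone, 0.193 with 50 kb on each side, 0.584 with the broader list, 0.199 with peaks within 200 bp joined, 0.0340 without peaks within 1 kb of any start, and 0.221 to 0.253 with 1 library left out. The shared share of 78.6% was 60.9% at an overlap of at least 50% of each peak and 94.0% against the broader list. The footprint density of 1.27 was 0.557 inside stricter peaks alone and 1.07 to 1.47 with 1 library left out. The other RNA-binding protein genes with a promoter peak numbered between 58 and 67 under all alternatives run. The matches of members to motifs numbered 14 in 250 bases and 24 in 500. No paired analysis was possible because the 2 libraries form 1 group. The cause of these shifts was not tested beyond what each alternative changes by construction. The unknown depth limits the absence of a peak to the lists used here.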

Other observations

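The Nova2 promoter peak held the 9 bases GGGCGTGGC, a form of the GC-rich boxes that SP and KLF factors bind, at 2 places, and all 9 bases were footprinted in both libraries at each. Of the 12042 promoters, 6.58% held this run at 1 place or more and 0.930% at 2 or more, on either strand, in the 627 bases upstream of the start, the distance that reaches the far end of the Nova2 peak. The run was chosen after the Nova2 sequence was seen, and the match is a description of the reference sequence.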
